A study of Arabidopsis thaliana with 12 samples.

Results

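The 10 genes described here encode enzymes of the general phenylpropanoid pathway and of lignin precursor synthesis in *Arabidopsis thaliana*: *PAL1* (AT2G37040), *PAL2* (AT3G53260), *C4H* (AT2G30490), *4CL1* (AT1G51680), *4CL2* (AT3G21240), *HCT* (AT5G48930), *CYP98A3* (AT2G40890), *CCOAOMT1* (AT4G34050), *COMT1* (AT5G54160) and *CCR1* (AT1G15950). They were chosen by locus identifier for their place in the pathway, though with earlier results of these data known, and are 10 of the 33323 loci measured. All 10 had enough counts to be tested. RNA sequencing was done on whole rosettes, cut from the roots, of soil-grown plants aged 25 d, kept at 20 °C with 16 h of light and 8 h of darkness. The study compared 4 genotypes. Col-0 is the wild type. The cdk8-1 line is mutated in *CDK8*, which encodes the kinase of the Mediator kinase module, a unit that modulates transcription by RNA polymerase II. In the jazD line 10 *JAZ* genes are mutated (*JAZ1* to *JAZ7*, *JAZ9*, *JAZ10* and *JAZ13*), whose proteins hold back the transcription factors of the jasmonate response. The jazD cdk8-1 line carries the mutations of both lines. Each genotype had 3 libraries, each from about 10 pooled plants, so the replicates are pools, and every genotype was grown in the same tray. No hormone or other treatment is named in the labels.

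The pathway starts from phenylalanine. Phenylalanine ammonia-lyase (PAL) removes the amino group to give cinnamate, cinnamate 4-hydroxylase (C4H) adds a hydroxyl group, and 4-coumarate:CoA ligase (4CL) activates the product as a CoA thioester. That thioester is the branch point to flavonoids, sinapate esters, hydroxycinnamoyl amides and lignin. Towards lignin, HCT couples it to shikimate, CYP98A3 hydroxylates the ring of the shikimate ester, CCoAOMT1 and COMT1 add methyl groups, and CCR1 reduces the CoA thioester to an aldehyde, the step that commits it to lignin monomers. In rosettes the pathway is best known for sinapoylmalate, a sunscreen of the leaf epidermis, for flavonols and for the lignin of the veins.

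Library totals lay between 17583465 and 21030372 counts. Levels are given as read counts per library total, scaled by TMM (CPM), which allow a gene to be compared between libraries. Levels of different genes are compared only in the deposited TPM values, which account for length. The label check placed *CDK8* at 18.7 ± 1.5 CPM in Col-0 and 20.4 ± 0.60 in jazD, against 2.56 ± 0.23 in cdk8-1 and 3.10 ± 0.33 in jazD cdk8-1 (SD, n = 3). Of the 11 mutated genes, *CDK8* included, 10 were tested, and in jazD against Col-0 5 were called lower, 3 higher and 2 not called. Those that fell included *JAZ1*, *JAZ2* and *JAZ6*, with log2 fold changes of −2.26, −3.03 and −3.47, whereas *JAZ9*, *JAZ10* and *JAZ13* were higher than in Col-0. The position of each mutation within its transcript is not given in the sources used here, so those 3 check nothing. The labelled organ carried its markers: 5 leaf genes summed to between 34812 and 50586 TPM per library, the root-hair genes *EXPA7* and *RHD6* were at 0 counts in every library, 6 root genes in all summed to between 11.3 and 17.5 TPM, and 5 floral genes summed to at most 2.15 TPM.

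In Col-0 the 10 genes summed to 924.2 ± 23.6 TPM (SD, n = 3). *CCOAOMT1* was the highest at 199 ± 2.79 TPM, followed by *HCT* at 187 ± 1.49 and *COMT1* at 186 ± 5.0, the last 2 of which did not differ beyond their spread. These 3 genes made up 21.5%, 20.2% and 20.1% of the sum. *CCR1* stood at 83.6 ± 5.42 TPM. *C4H* at 64.5 ± 4.46 and *4CL1* at 62.6 ± 1.35 did not differ beyond their spread, nor did *PAL2* at 53.7 ± 1.48 and *PAL1* at 51.1 ± 3.10. *CYP98A3* was at 32.9 ± 1.68 TPM and *4CL2*, the minor ligase of this pair, at 4.27 ± 0.58.

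The sum and its makeup differed between genotypes. It was 1054 ± 24.7 TPM in cdk8-1, 820.1 ± 28.0 in jazD and 967.5 ± 3.58 in jazD cdk8-1. The ranges did not overlap: 901 to 948 in Col-0, 1035 to 1082 in cdk8-1, 798 to 852 in jazD and 965 to 972 in jazD cdk8-1. TPM is a share of all transcripts, and on that scale the median over all tested genes was itself shifted by 0.08 in cdk8-1 and by −0.06 in jazD, each against Col-0, and in jazD cdk8-1 by 0.13 against jazD and by 0.07 against Col-0 (log2 of TPM + 1). The sums of jazD cdk8-1 and Col-0 differ by about as much as that last shift. Shares within the 10 genes are free of that shift. *HCT* took 20.2% in Col-0, 16.0% in cdk8-1, 14.6% with mutated *JAZ* genes and 12.8% with both sets of mutations. That of *CCOAOMT1* was 26.3% in cdk8-1 and 27.3% in jazD cdk8-1, against 21.5% in Col-0 and 20.9% in jazD. That of *COMT1* was 26.0% in jazD and 23.8% in jazD cdk8-1, against 20.1% in Col-0 and 20.2% in cdk8-1.

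**Figure D1:**
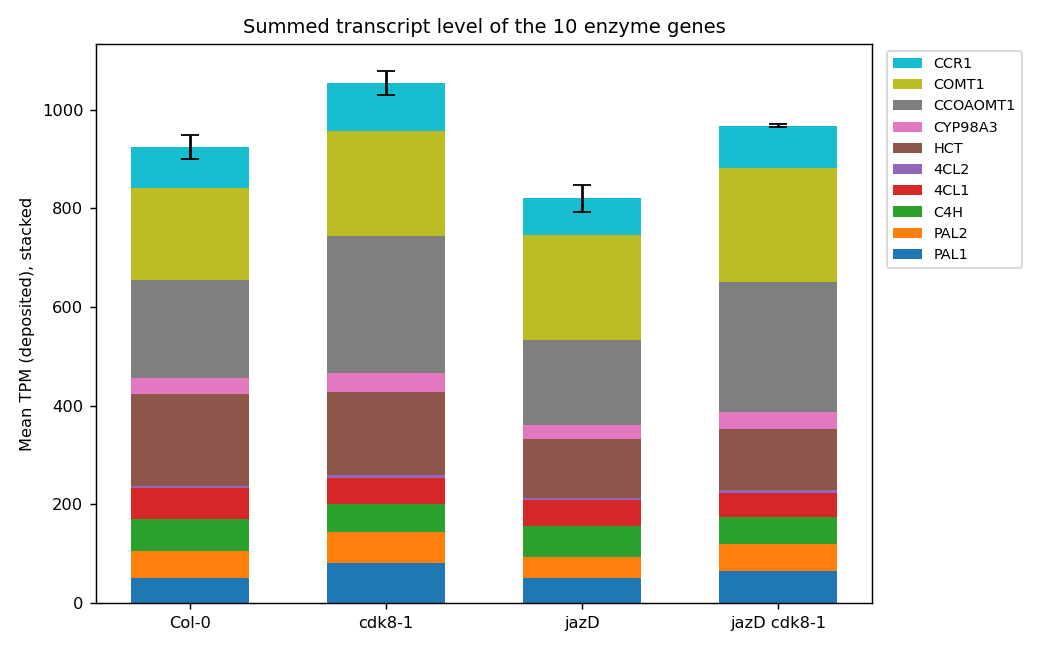
Mean deposited TPM of the 10 enzyme genes, stacked by genotype, with the SD of the summed value over 3 libraries as the error bar. The stacks reach 924.2 in Col-0, 1054 in cdk8-1, 820.1 in jazD and 967.5 in jazD cdk8-1, with the *HCT* block thinnest in the genotypes with mutated *JAZ* genes and the *CCOAOMT1* block thickest in those with mutated *CDK8*.

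AC elements are short promoter motifs bound by MYB factors that switch on lignin genes, and the promoters of the 10 genes were searched for them because the members rose and fell in different genotypes. The 250 bases before each gene's start were read from the RefSeq annotation of TAIR10.1, to which all 10 loci matched by identifier. The letters ACCTACC (AC-I), ACCAACC (AC-II) and ACCTAAC (AC-III) were sought on both strands. At least 1 of them was found in 5 of the 10 promoters, and in 6.13% of the promoters of the 18495 tested genes with a sequence. The stretches that hold them are shown 5′ to 3′ on the strand of the gene, with the AC element in capitals. They lie at chr3:7457420-7457555 (minus strand) for *4CL2*, chr5:19838283-19838362 (minus) for *HCT*, chr2:17060653-17060732 (minus) for *CYP98A3*, chr4:16310159-16310238 (plus) for *CCOAOMT1* and chr1:5478523-5478602 (plus) for *CCR1*, all in TAIR10.1.
4CL2: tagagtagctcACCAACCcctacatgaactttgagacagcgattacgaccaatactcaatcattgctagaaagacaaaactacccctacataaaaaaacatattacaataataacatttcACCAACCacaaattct
HCT: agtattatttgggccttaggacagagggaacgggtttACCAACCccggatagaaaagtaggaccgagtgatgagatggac
CYP98A3: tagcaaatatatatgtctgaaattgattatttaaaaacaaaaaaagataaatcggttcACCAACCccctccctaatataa
CCOAOMT1: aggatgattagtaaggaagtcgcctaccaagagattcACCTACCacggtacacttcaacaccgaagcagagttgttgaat
CCR1: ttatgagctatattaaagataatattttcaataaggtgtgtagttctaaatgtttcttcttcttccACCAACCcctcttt

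Of these promoters, 4 hold AC-II, which occurs in 2.76% of the promoters, and *CCOAOMT1* holds AC-I, which occurs in 1.21%. AC-III was in none of the 10 and in 2.34% of all. In *4CL2* the element occurs at −140 and again at −31 from the gene's start, in *HCT* at −90, in *CYP98A3* at −22, in *CCOAOMT1* at −213 and in *CCR1* at −14. The G-box CACGTG, the site of MYC factors released by loss of JAZ proteins, and its variant CACATG were in none of the 10 windows, while 7.37% and 11.1% of all promoters hold them. A match of letters is a description of this window only. The 5 genes that share an AC element did not move as 1 group: in jazD *HCT*, *CYP98A3* and *CCOAOMT1* fell, *4CL2* and *CCR1* did not pass the test, and in cdk8-1 *HCT* fell while *4CL2*, *CYP98A3* and *CCOAOMT1* rose.

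Loss of the JAZ repressors with CDK8 present lowered 5 of the 10 genes and raised 1, all by less than 1.5-fold. *HCT*, *PAL2*, *4CL1*, *CYP98A3* and *CCOAOMT1* fell and *COMT1* rose in jazD against Col-0. Of all 19059 genes tested, 42.8% were called in this comparison (21.8% higher, 20.9% lower) by edgeR's quasi-likelihood test at a Benjamini-Hochberg adjusted p of 0.05. The libraries of the genotypes did not overlap for 6 of the 10 genes and for 51.5% of all tested genes. The median log2 fold change was −0.11 over the 10 genes and 0.00068 over all tested genes.

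Loss of CDK8 with the *JAZ* genes intact changed 9 of the 10 genes, against 25.5% of all tested genes called (11.7% higher, 13.8% lower). *PAL1*, *PAL2*, *4CL2*, *CYP98A3*, *CCOAOMT1* and *COMT1* rose in cdk8-1 against Col-0, and *C4H*, *4CL1* and *HCT* fell. The libraries of the genotypes did not overlap for any of the 10 genes, where 37.6% of all tested genes showed no overlap. The median was 0.14 over the 10 genes and 0.0011 over all tested. The calls of *PAL2*, *4CL2*, *CYP98A3* and *COMT1* each rested on single libraries, as given with their values.

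In the jazD background the *cdk8-1* mutation changed 5 of the 10 genes, against 35.8% of all tested genes (16.9% higher, 19.0% lower). *PAL1*, *PAL2* and *CCOAOMT1* rose in jazD cdk8-1 against jazD and *C4H* and *4CL1* fell, each in the same direction as in cdk8-1 against Col-0. No overlap was seen for 8 of the 10 and for 47.9% of all tested genes. The median was 0.09 over the 10 genes and 0.00010 over all tested genes. With TPM in place of TMM-scaled counts the calls numbered 9, with 7 higher and 2 lower, while the share of called genes that were higher went from 47.1% to 75.7% over all genes. The same change of scale took that share from 51.0% to 37.9% in jazD against Col-0 and from 45.9% to 69.4% in cdk8-1 against Col-0.

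With all mutations together, 7 of the 10 genes differed from Col-0, against 32.4% of all tested genes (16.3% higher, 16.1% lower), and for the same number of members, and 44.8% of all genes, the libraries did not overlap. *PAL1*, *4CL2*, *CCOAOMT1* and *COMT1* were higher in jazD cdk8-1 and *C4H*, *4CL1* and *HCT* were lower, and the same 7 genes were called on TPM, where 66.8% of called genes were higher against 50.4% on scaled counts. Against cdk8-1, which isolates loss of the JAZ repressors without CDK8, 7 of the 10 were called where 24.0% of all tested genes were (12.7% higher, 11.2% lower), and 7 showed no overlap where 38.0% of all genes did. *PAL1*, *PAL2*, *4CL1*, *HCT*, *CYP98A3* and *CCR1* were lower in jazD cdk8-1 and *COMT1* was higher. Without replicate 1 of cdk8-1, or without replicate 3 of jazD cdk8-1, 4 of those 7 calls were left. The comparisons share libraries: Col-0 serves in 3 of them and each mutant in at least 2, so that their values are set side by side below and are not independent.

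**Figure D2:**
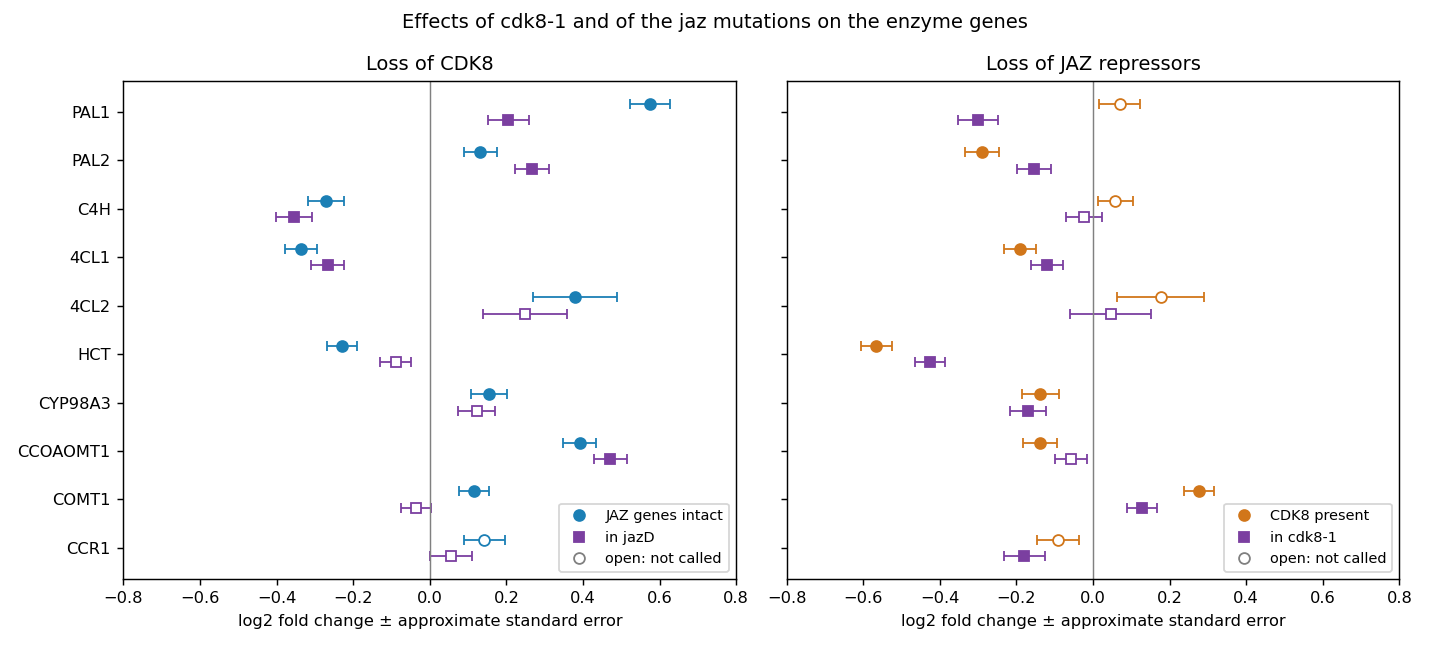
Log2 fold change of the 10 enzyme genes with its approximate standard error. The left panel shows the *cdk8-1* mutation with *JAZ* genes intact (circles) and in jazD (squares), the right panel the *jaz* mutations with CDK8 present (circles) and in cdk8-1 (squares), and open symbols did not pass the test. *PAL1* has the widest gap between circle and square on the left (0.58 and 0.20), and *HCT* lies farthest to the left in the right panel (−0.57 and −0.43). On TPM the open squares of *COMT1* and *HCT* on the left and the open circles of *PAL1* and *C4H* on the right change sign.

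*PAL1* and *PAL2* encode the entry enzyme, and their transcripts responded differently to the same mutations. *PAL1* was at 114, 122 and 115 CPM in Col-0, at 185, 172 and 166 in cdk8-1, at 117, 132 and 119 in jazD and at 137, 147 and 139.8 in jazD cdk8-1. The 3 cdk8-1 libraries were the highest of all, the 3 jazD cdk8-1 libraries came next, and Col-0 and jazD overlapped. *PAL1* rose by 0.58 ± 0.05 (log2, approximate standard error; 1.49-fold; adjusted p = 4.19e-08) in cdk8-1 against Col-0 and by 0.20 ± 0.05 (adjusted p = 0.00441) in jazD cdk8-1 against jazD. The *jaz* mutations gave 0.07 ± 0.05 with CDK8 present, which did not pass the test (adjusted p = 0.316), and a fall of −0.30 ± 0.05 (adjusted p = 0.000176) in the cdk8-1 background.

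*PAL2* was at 120.3, 122 and 125 CPM in Col-0, at 138, 134 and 131 in cdk8-1, at 101, 104 and 95.5 in jazD and at 122, 122 and 118 in jazD cdk8-1. Here the jazD libraries were the lowest, without overlap with any other genotype, and jazD cdk8-1 overlapped Col-0. *PAL2* fell by −0.29 ± 0.04 (1.22-fold; adjusted p = 1.74e-05) in jazD and was 0.27 ± 0.04 higher (adjusted p = 6.21e-05) in jazD cdk8-1 than in jazD. In cdk8-1 against Col-0 it rose by 0.13 ± 0.04 (adjusted p = 0.0304), a call lost without replicate 1 or 2 of Col-0 or replicate 1 of cdk8-1 (0.11 to 0.13, adjusted p = 0.0744 to 0.109). In jazD cdk8-1 it was −0.15 ± 0.04 below cdk8-1 (adjusted p = 0.0124), a call lost without replicate 1 of cdk8-1 or replicate 3 of jazD cdk8-1 (−0.13 and −0.14, adjusted p = 0.0532 and 0.0649).

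The balance of the 2 lyase transcripts moved with these changes. The TPM ratio of *PAL1* to *PAL2* was 0.95 ± 0.04 in Col-0, 1.29 ± 0.04 in cdk8-1, 1.22 ± 0.05 in jazD and 1.17 ± 0.05 in jazD cdk8-1 (SD, n = 3), and Col-0, at 0.91 to 0.99, overlapped none of the mutants. The coding sequences of the pair are 82.42% identical and share a run of 80 bases, but only 31 windows of 50 bases, 1.08% of those in *PAL1*. When the counts of both genes were summed, the total fell by −0.10 ± 0.05 in jazD, which did not pass the test (adjusted p = 0.0747), and rose by 0.37 ± 0.05 in cdk8-1 (adjusted p = 2.95e-06).

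*PAL1* was also the only 1 of the 10 genes whose response to *cdk8-1* differed between the *JAZ* backgrounds on scaled counts with all libraries kept. The interaction, defined as the change that *cdk8-1* made in jazD less the change it made with intact *JAZ* genes, was −0.37 ± 0.07 for *PAL1* (adjusted p = 0.00140), so that 1 of the 10 was called lower and none higher. Of all tested genes 16.5% were called, 8.16% higher and 8.39% lower. Without any 1 library it lay between −0.41 and −0.33 and stayed called. It was not called on log2(TPM + 1) without a filter (−0.31, adjusted p = 0.0816) or on the sum of *PAL1* and *PAL2* (−0.13, adjusted p = 0.181). The nearest other members were *COMT1* at −0.15 ± 0.06 (adjusted p = 0.0703), which was called without replicate 1 of jazD (−0.18, adjusted p = 0.0451), and *HCT* at 0.14 ± 0.06 (adjusted p = 0.0969), which was called on log2(TPM + 1) (0.20, adjusted p = 0.0168). On that scale the median interaction over all tested genes was itself shifted by 0.05. There 59.7% of called genes were higher, against 49.3% on scaled counts. For the other 7 the 95% interval of the interaction held 0, from −0.49 to 0.23 for the sparsely counted *4CL2* and within −0.26 to 0.28 for the rest. Among these 7, *PAL2* at 0.14 ± 0.06 had an unadjusted p of 0.0406 in the quasi-likelihood test (adjusted p = 0.151). Its interval still held 0 because the intervals use fewer degrees of freedom than the test and are wider.

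*C4H* encodes the P450 that acts on the product of PAL, and its level split by the *CDK8* genotype. It was at 104, 104 and 94.1 CPM in Col-0 and at 102, 106 and 107 in jazD, and at 84.1, 83.5 and 82.4 in cdk8-1 and at 80.3, 83.5 and 82.0 in jazD cdk8-1. Every library with mutated *CDK8* was below every library with intact *CDK8*. *C4H* fell by −0.27 ± 0.05 (1.21-fold; adjusted p = 0.000140) in cdk8-1 and by −0.35 ± 0.05 (1.28-fold; adjusted p = 3.52e-06) in jazD cdk8-1 against jazD. The *jaz* mutations gave 0.06 ± 0.05 (adjusted p = 0.329; 95% interval −0.05 to 0.16) with CDK8, a value whose sign turns on TPM (−0.02), and −0.02 ± 0.05 (adjusted p = 0.768; −0.13 to 0.08) without it. The fall of *C4H* beside the rise of *PAL1* took the TPM ratio of *PAL1* to *C4H* from 0.79 ± 0.04 in Col-0 and 0.80 ± 0.04 in jazD to 1.42 ± 0.07 in cdk8-1 and 1.17 ± 0.02 in jazD cdk8-1.

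*4CL1*, the main ligase gene of the pair, fell with each mutation. It was at 114, 111 and 111 CPM in Col-0, at 98.7, 96.6 and 98.9 in jazD, at 89.9, 89.4 and 86.6 in cdk8-1 and at 84.5, 78.7 and 81.5 in jazD cdk8-1, and these 4 ranges followed each other without overlap. The fall against Col-0 was −0.19 ± 0.04 (adjusted p = 0.000980) in jazD, −0.34 ± 0.04 (adjusted p = 3.53e-06) in cdk8-1 and −0.46 ± 0.04 (1.37-fold; adjusted p = 3.21e-08) in jazD cdk8-1. Against jazD, jazD cdk8-1 was lower by −0.27 ± 0.04 (adjusted p = 4.43e-05). Against cdk8-1 the difference of −0.12 ± 0.04 (adjusted p = 0.0466) was lost without any 1 of the 3 cdk8-1 libraries, replicate 2 of Col-0, or replicate 2 or 3 of jazD cdk8-1, with adjusted p of up to 0.1995 and a value of −0.10 without replicate 2 of jazD cdk8-1.

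*4CL2* was far lower, and it was called higher than Col-0 in cdk8-1 and in jazD cdk8-1, where *4CL1* was called lower. Its libraries held 435 counts in all in Col-0, 576 in cdk8-1, 462 in jazD and 599 in jazD cdk8-1, which set the precision of its folds. It was at 8.61, 6.72 and 6.75 CPM in Col-0, at 10.08, 8.84 and 9.75 in cdk8-1, at 8.66, 8.06 and 8.23 in jazD and at 8.68, 9.90 and 10.9 in jazD cdk8-1. The rise of 0.38 ± 0.11 (1.30-fold; adjusted p = 0.0144) in cdk8-1 was lost without replicate 2 or 3 of Col-0 or replicate 1 of cdk8-1 (0.32 to 0.34, adjusted p = 0.0564 to 0.074), and the rise in jazD cdk8-1 against Col-0 was 0.43 ± 0.11 (adjusted p = 0.00486). In jazD it was 0.18 ± 0.11 above Col-0 (adjusted p = 0.226), a difference that was called only without replicate 1 of Col-0 (0.31, adjusted p = 0.0433). Against jazD, jazD cdk8-1 was at 0.25 ± 0.11 (adjusted p = 0.0824), called without replicate 1 of jazD cdk8-1 (0.32, adjusted p = 0.0424). The coding sequences of *4CL1* and *4CL2* are 78.94% identical with a longest shared run of 35 bases, and they share no window of 50 bases.

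**Figure D3:**
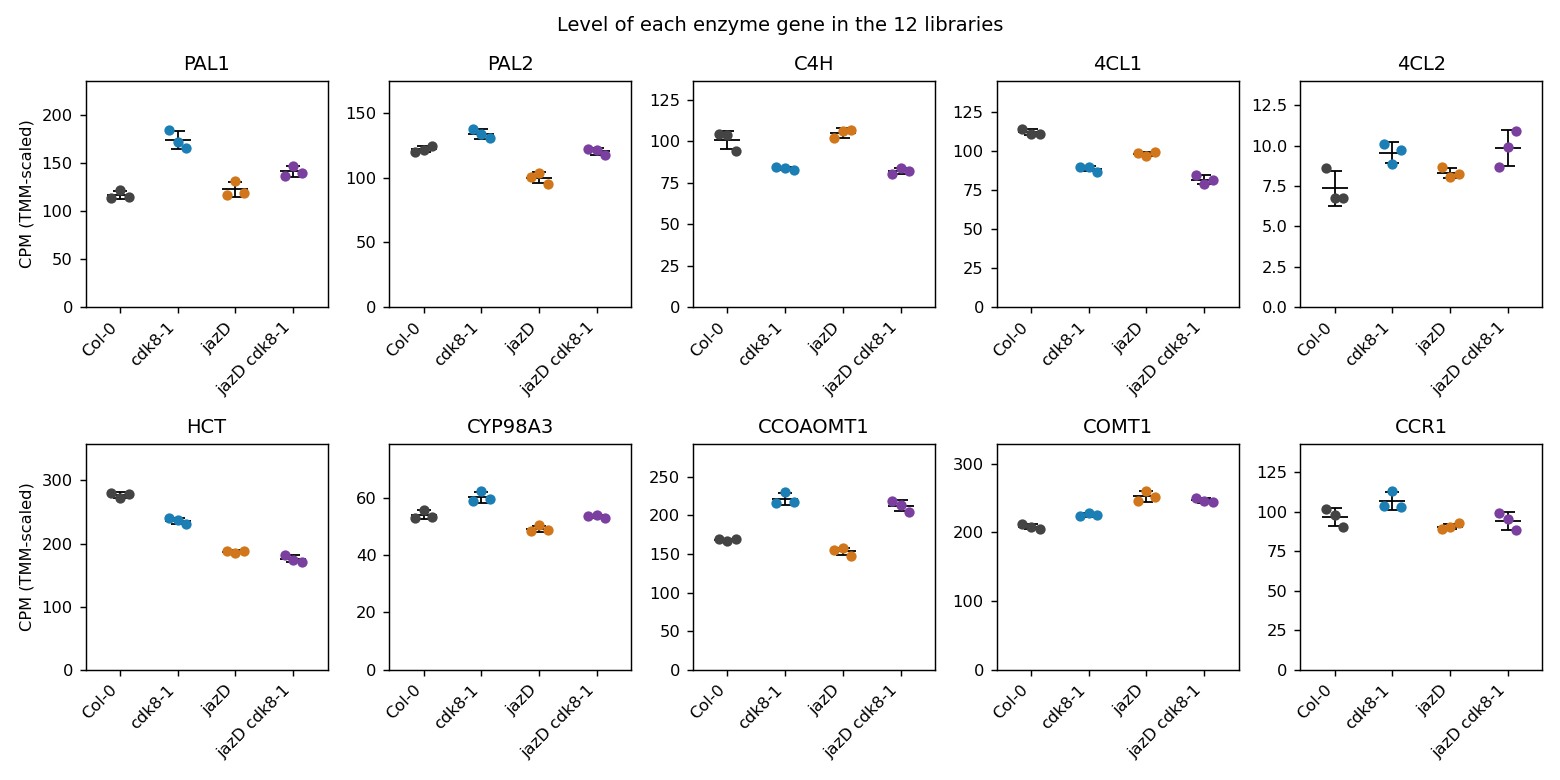
TMM-scaled CPM of the 10 enzyme genes in the 12 libraries, by genotype, with each axis starting at 0. Points are libraries and bars the mean and SD of 3. *C4H* splits by the *CDK8* genotype, *4CL1* steps down from Col-0 to jazD cdk8-1, and *HCT* is lowest in the 2 genotypes with mutated *JAZ* genes.

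*HCT*, the acyltransferase that leads from the branch point towards lignin, had the widest range of the 10 genes over the 4 genotype means, 0.65 on the log2 scale. Of all tested genes, 24.7% had a range at least as wide. It was at 279.9, 272 and 279 CPM in Col-0, at 240.0, 238 and 231 in cdk8-1, at 188, 185 and 188 in jazD and at 182, 175 and 171 in jazD cdk8-1. No 2 of these ranges overlapped. The fall was −0.57 ± 0.04 (1.48-fold; adjusted p = 1.88e-10) in jazD against Col-0 and −0.43 ± 0.04 (1.34-fold; adjusted p = 5.13e-08) in jazD cdk8-1 against cdk8-1. The *cdk8-1* mutation lowered it by −0.23 ± 0.04 (adjusted p = 0.000145) with intact *JAZ* genes, while the −0.09 ± 0.04 in jazD (adjusted p = 0.0913) did not pass the test, was called without replicate 1 of jazD cdk8-1 (−0.12, adjusted p = 0.0444), and turned to 0.06 on TPM. Against Col-0, jazD cdk8-1 was lower by −0.65 ± 0.04 (1.57-fold; adjusted p = 4.24e-11).

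*HCT* and *COMT1* lie on chromosome 5 between AT5G44490 and AT5G56910, a stretch set apart on earlier values of these data. Its bounds came from these data, so the shares below describe it and do not test it. The stretch held 926 tested genes, of which 54.5% were called in jazD against Col-0, beside 42.2% elsewhere. It held 23 of the 38 genes that were at least 8-fold lower in jazD. In jazD cdk8-1 the shares called in the stretch and elsewhere were 26.8% and 23.8% against cdk8-1, and 34.0% and 32.3% against Col-0. Against jazD they were 46.4% and 35.3%, and for the interaction 28.9% and 15.9%. Of the genes at least 8-fold lower in jazD cdk8-1, it held 4 of 15 against cdk8-1, 5 of 35 against Col-0 and 5 of 88 against jazD. Among the 10 tested loci on each side of *HCT*, 5 were higher and 5 lower in jazD, and among those around *COMT1* 8 were higher and 4 lower; none of either set was 8-fold lower. The part of this stretch in the values of *HCT* and *COMT1* was not tested.

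*CYP98A3*, the 3′-hydroxylase that follows HCT, changed little. It was at 52.9, 55.8 and 53.4 CPM in Col-0, at 58.8, 62.4 and 59.5 in cdk8-1, at 48.3, 50.4 and 48.7 in jazD and at 53.8, 53.9 and 52.8 in jazD cdk8-1. The cdk8-1 libraries were the highest and the jazD libraries the lowest, with Col-0 and jazD cdk8-1 overlapping between them. The fall of −0.14 ± 0.05 (adjusted p = 0.0248) in jazD was lost without replicate 2 of Col-0 or replicate 1 or 3 of jazD (−0.13 to −0.12, adjusted p = 0.0761 to 0.0937) and in DESeq2 (−0.14, adjusted p = 0.0554). The rise of 0.16 ± 0.05 (adjusted p = 0.0181) in cdk8-1 was lost without replicate 1 or 3 of Col-0 or replicate 2 of cdk8-1 (0.13 to 0.15, adjusted p = 0.0509 to 0.0728). In jazD cdk8-1 it was 0.12 ± 0.05 above jazD (adjusted p = 0.0523), which was called without replicate 2 of Col-0 (0.12, adjusted p = 0.0493) or of cdk8-1 (0.12, adjusted p = 0.0438) and on TPM. It was −0.17 ± 0.05 below cdk8-1 (adjusted p = 0.0103).

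*CCOAOMT1*, which methylates caffeoyl-CoA, rose with loss of CDK8 in both backgrounds. It was at 169, 167 and 169 CPM in Col-0 and 155, 157 and 148 in jazD, and at 216, 230.1 and 218 in cdk8-1 and at 219, 214 and 205 in jazD cdk8-1. All 6 libraries with mutated *CDK8* lay above the other 6. The rise was 0.39 ± 0.04 (1.31-fold; adjusted p = 5.37e-07) in cdk8-1 against Col-0 and 0.47 ± 0.04 (1.39-fold; adjusted p = 2.02e-08) in jazD cdk8-1 against jazD. The *jaz* mutations lowered it by −0.14 ± 0.04 (adjusted p = 0.0137) with CDK8, a call lost without replicate 3 of jazD (−0.11, adjusted p = 0.0924), and gave −0.06 ± 0.04 (adjusted p = 0.359) without CDK8. Against *HCT*, which fell, its TPM ratio was 1.07 ± 0.007 in Col-0, 1.64 ± 0.06 in cdk8-1, 1.44 ± 0.06 in jazD and 2.13 ± 0.03 in jazD cdk8-1.

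*COMT1*, the methyltransferase of the later monolignol steps, was the only 1 of the 10 called higher in jazD against Col-0 with all libraries kept. It was at 212, 208 and 205 CPM in Col-0, at 223, 229 and 225 in cdk8-1, at 245, 261 and 252 in jazD and at 250.3, 245 and 244 in jazD cdk8-1. Each library with mutated *JAZ* genes was above each library with intact ones. The rise was 0.28 ± 0.04 (1.21-fold; adjusted p = 6.84e-06) in jazD against Col-0. In jazD cdk8-1 against cdk8-1 it was 0.13 ± 0.04 (adjusted p = 0.0215), a call lost without replicate 1 or 3 of cdk8-1 or replicate 1 or 2 of jazD cdk8-1 (0.11 to 0.13, adjusted p = 0.0539 to 0.09999) and on TPM (0.11, adjusted p = 0.0584). The *cdk8-1* mutation gave 0.11 ± 0.04 with intact *JAZ* genes (adjusted p = 0.0366). That call was lost without any 1 of the 3 cdk8-1 libraries or replicate 2 or 3 of Col-0 (0.11 to 0.12, adjusted p = 0.0528 to 0.103). In jazD the mutation gave −0.04 ± 0.04 (adjusted p = 0.518) on scaled counts and 0.11 on TPM, where it was called (adjusted p = 0.0324).

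*CCR1*, which commits the pathway to lignin monomers, had the narrowest range of the 10, 0.23 on the log2 scale, and 71.1% of all tested genes ranged at least as widely. It was at 102, 97.8 and 90.5 CPM in Col-0, at 103, 113 and 103 in cdk8-1, at 89.2, 90.2 and 92.7 in jazD and at 99.2, 95.3 and 88.3 in jazD cdk8-1. Only cdk8-1 stood above the rest without overlap. Against Col-0 its value of 0.14 ± 0.05 (adjusted p = 0.0566) did not pass the test, but was called without replicate 1 of Col-0 (0.18, adjusted p = 0.0306), without replicate 1 or 3 of jazD cdk8-1 (0.15 and 0.14, adjusted p = 0.0499 in both) and on TPM. In jazD cdk8-1 it was −0.18 ± 0.05 below cdk8-1 (adjusted p = 0.0182), which was lost without replicate 2 of cdk8-1 or replicate 3 of jazD cdk8-1 (both −0.13, adjusted p = 0.0969 and 0.122). In jazD it was at −0.09 ± 0.05 (adjusted p = 0.185), called on TPM (−0.17, adjusted p = 0.0142). *CCR1* overlaps *NRAMP6* (AT1G15960) on the opposite strand, and 64.2% of the 50-base windows of its transcript also occur, on 1 strand or the other, in *NRAMP6* or in the RefSeq gene AT1G05213, so that without strand its reads and theirs cannot be told apart. *NRAMP6* was at 8.60 ± 1.42 CPM in Col-0, at 5.08 ± 1.00 in cdk8-1, at 6.46 ± 0.85 in jazD and at 4.35 ± 0.78 in jazD cdk8-1. It fell in all 3 mutants against Col-0, by −0.76 ± 0.16, −0.42 ± 0.15 and −0.99 ± 0.16 on the log2 scale. Its part in the values of *CCR1* was not tested.

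Over the 4 genotype means the 10 genes kept different patterns. The closest members were *CYP98A3* and *CCR1*, 0.03 apart as the root mean square distance of their centred log2 CPM, then *PAL2* and *CYP98A3* at 0.06, while *4CL2* and *HCT* were the farthest apart at 0.39. For the 3 members with the widest ranges, the nearest 2 of 16399 other genes were sought in the same way over the 4 genotypes. Nearest to *HCT* were AT2G36830 (*GAMMA-TIP*, a tonoplast aquaporin) at 0.020 and AT5G14580 at 0.023. Nearest to *PAL1* were AT4G13690 at 0.023 and AT5G11950 (*LOG8*) at 0.025, and nearest to *CCOAOMT1* were AT1G34355 (*PS1*) at 0.0049 and AT3G11600 at 0.016.

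Of 13 other enzyme genes of the same pathway 11 were tested, and 5 rose and 1 fell in jazD against Col-0, with a median of −0.02. Over all tested genes 21.8% were called higher and 20.9% lower in that comparison. In jazD cdk8-1 against jazD those shares were 16.9% and 19.0%, and they apply to this list and to those that follow. *ALDH2C4*, which oxidises coniferaldehyde and sinapaldehyde to ferulate and sinapate, rose by 1.29 ± 0.04 (2.45-fold; adjusted p = 8.96e-16), from 101 to 105 CPM in Col-0 to between 249 and 254 in jazD. *F5H2*, a homologue of the ferulate 5-hydroxylase gene *F5H1*, rose by 1.33 ± 0.22 to between 3.16 and 4.67 CPM, and *F5H1* rose by 0.28 ± 0.04. *CAD4*, a cinnamyl alcohol dehydrogenase gene of the last monolignol step, fell by −0.57 ± 0.05. Against jazD, 1 rose and 5 fell in jazD cdk8-1: the ligase gene *4CL3* rose by 0.57 ± 0.08, and *ALDH2C4*, *F5H2* and *CAD5*, the partner of *CAD4*, fell by −0.94 ± 0.04, −1.91 ± 0.24 and −0.55 ± 0.09. On log2(TPM + 1) the split was 2 higher and 3 lower.

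The P450s C4H and CYP98A3 take electrons from reductases and are held together in the membrane by scaffold proteins. All 5 listed genes of these partners rose in jazD, where 21.8% of all tested genes were called higher. *MSBP2* and *MSBP1*, the membrane scaffolds, rose by 0.76 ± 0.05 and 0.52 ± 0.06, and the reductase gene *ATR1* by 0.35 ± 0.05. *C4H* did not pass the test and *CYP98A3* fell, while the hydroxylase gene *F5H1* rose by 0.28 ± 0.04. *MSBP1* and *CB5D*, the cytochrome b5 gene of the list, lie in the same stretch of chromosome 5 as *HCT* and *COMT1*, and the part of that stretch in their values was not tested. Of the 5, 3 fell in jazD cdk8-1 against jazD, *MSBP2* by −0.25 ± 0.05, *ATR2* by −0.19 ± 0.04 and *ATR1* by −0.15 ± 0.05. On log2(TPM + 1) 4 of the 5 rose in jazD and none of those 3 was called in jazD cdk8-1 against jazD (−0.10, −0.05 and −0.01, adjusted p = 0.114, 0.487 and 0.922). The *ATR1* call was also lost without 3 of the 12 libraries, each left out alone, with adjusted p of up to 0.0875.

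The genes that supply phenylalanine were mixed. Of 10 tested, 3 rose and 2 fell in jazD, beside 21.8% of all tested genes called higher and 20.9% lower. *ADT4*, an arogenate dehydratase gene of the last step, rose by 0.59 ± 0.06, the chorismate mutase gene *CM3* by 0.45 ± 0.07 and the prephenate aminotransferase gene *PPA-AT* by 0.31 ± 0.07, while *CM1* fell by −0.33 ± 0.06 and *ADT1* by −0.19 ± 0.07. The *ADT1* call was lost in 4 of the 12 fits that left out a library (adjusted p of up to 0.0938). Adding *cdk8-1* to jazD raised 1 and lowered 4, among them *ADT4* by −0.65 ± 0.06, *ADT5* by −0.61 ± 0.08 and *PPA-AT* by −0.23 ± 0.07, the last of which was lost on TPM (−0.07, adjusted p = 0.478) and in 2 of the 12 fits (adjusted p of up to 0.122). On log2(TPM + 1) this split was 4 higher and 2 lower. *ADT3* rose by 0.17 ± 0.05, a call lost in 4 of the 12 fits (adjusted p of up to 0.0922).

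Among 16 listed regulators 13 were tested, and 2 rose and 1 fell in jazD, beside 21.8% of all tested genes higher and 20.9% lower. *KFB1*, one of the Kelch-repeat F-box genes whose proteins target PAL for degradation, rose by 1.26 ± 0.14 (2.39-fold; adjusted p = 3.32e-07). *MYB15* rose by 1.29 ± 0.38 at 0.65 to 2.16 CPM in jazD, a call lost in 1 of the 12 fits that left out a library (0.86 to 1.62, adjusted p of up to 0.111). The Mediator subunit gene *MED5A*, whose product acts on phenylpropanoid genes, fell by −0.17 ± 0.06, lost in 4 of the 12 fits (adjusted p of up to 0.0937). Adding *cdk8-1* to jazD raised 1 and lowered 5. *KFB1* fell by −1.16 ± 0.14, *KFB20* by −0.55 ± 0.09 and *KFB50* by −0.34 ± 0.06, beside the rises of *PAL1* and *PAL2* transcripts. *KFB50* was at 116, 117 and 121 CPM in jazD and at 90.2, 91.6 and 97.8 in jazD cdk8-1, with no overlap. *MYB46*, a switch of secondary wall formation, rose by 0.74 ± 0.28 (adjusted p = 0.0429), a call lost in 7 of the 12 fits (adjusted p of up to 0.177) and in DESeq2 (adjusted p = 0.134).

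On the branches to sinapate esters and coumarins 7 of 14 listed genes were tested. In jazD 3 rose and 2 fell, beside 21.8% of all tested genes higher and 20.9% lower. *UGT72E1*, which glucosylates monolignol aldehydes, was at 23.4, 24.0 and 23.4 CPM in Col-0, at 12.0, 9.77 and 10.95 in cdk8-1, at 96.8, 99.2 and 90.8 in jazD and at 26.1, 29.3 and 26.4 in jazD cdk8-1. It rose by 2.02 ± 0.06 (4.06-fold; adjusted p = 1.15e-16) in jazD and fell by −1.81 ± 0.06 (3.50-fold; adjusted p = 1.57e-15) in jazD cdk8-1 against jazD. *UGT84A3*, of the sinapate glucosyltransferase family, and *SNG1*, which makes sinapoylmalate from the glucose ester of sinapate, fell by −0.57 ± 0.06 and −0.36 ± 0.04 in jazD. *F6′H1*, the gene of feruloyl-CoA 6′-hydroxylase in coumarin synthesis, was called higher in jazD (2.46 ± 0.52) on 2, 4 and 9 counts in Col-0 and 13, 50 and 17 in jazD, and had at most 1 count in any library of cdk8-1 or jazD cdk8-1. *UGT84A2* was called higher at 0.17 ± 0.06, but not on TPM (0.10, adjusted p = 0.188) nor in 3 of the 12 fits that left out a library (adjusted p of up to 0.128). Between jazD cdk8-1 and jazD 1 gene rose, *UGT84A3* by 0.37 ± 0.06, and 2 fell.

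Markers of xylem and secondary walls, and some of the leaf, moved with some of the 10 genes. Of 15 xylem and secondary wall genes listed, 12 were tested, and 11 fell and none rose in jazD against Col-0, with a median of −0.45. Of all tested genes 20.9% were called lower there. The laccase genes *LAC17* and *LAC4*, whose products polymerise monolignols, fell by −0.70 ± 0.09 and −0.45 ± 0.07, and the xylem protease gene *XCP1* by −0.57 ± 0.07. The 15 genes summed to 140.1 to 146.7 TPM in Col-0, 96.3 to 103 in jazD, 169 to 190.1 in cdk8-1 and 149 to 161 in jazD cdk8-1. *NST3*, a gene of this list, was at 0 counts in every library. Without *XCP1*, a choice made after its values were seen, the other 14 summed to between 117 and 119 TPM in Col-0, between 117 and 136 in cdk8-1, between 80.5 and 87.0 in jazD and between 106 and 117 in jazD cdk8-1. On those sums cdk8-1 overlapped Col-0, and each jazD library lay below every other library. In jazD cdk8-1 against jazD 7 of the 12 rose and none fell, *XCP1* by 1.35 ± 0.07, *XCP2* by 0.28 ± 0.07 and *LAC4* by 0.30 ± 0.07. Among 5 leaf markers 3 fell in jazD, the photosynthesis genes *CA1* by −0.79 ± 0.05, *RCA* by −0.71 ± 0.05 and *GLDP1* by −0.68 ± 0.04, and in jazD cdk8-1 against jazD the same 3 rose by 0.28 ± 0.05, 0.35 ± 0.05 and 0.48 ± 0.04 while *LHCB1.1* fell by −0.33 ± 0.05. The root-associated genes moved in opposite directions in jazD, the nitrate transporter gene *NRT2.1* by 2.14 ± 0.32, to 53 counts at most in a library, and *SCR* by −0.33 ± 0.06, and in jazD cdk8-1 against jazD by −1.14 ± 0.28 and 0.26 ± 0.06. The floral gene *AG*, at no more than 17 counts in a library, was called lower in jazD (−1.47 ± 0.45) and higher in jazD cdk8-1 against jazD (1.34 ± 0.46). Without replicate 1 of jazD neither call held (−1.12 and 0.98, adjusted p = 0.0712 and 0.135), and the latter was also lost without replicate 2 of jazD (adjusted p = 0.0756) or replicate 1 of jazD cdk8-1 (adjusted p = 0.142). Fewer vein cells in a rosette and less RNA of these genes per cell cannot be told apart in these bulk libraries. Within the lignin branch *HCT*, *CYP98A3* and *CCOAOMT1* fell in jazD as these markers did, *COMT1* rose, and in jazD cdk8-1 against jazD *CCOAOMT1* rose with them while *HCT* did not; the part of xylem or leaf content in these values was not tested.

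**Figure D4:**
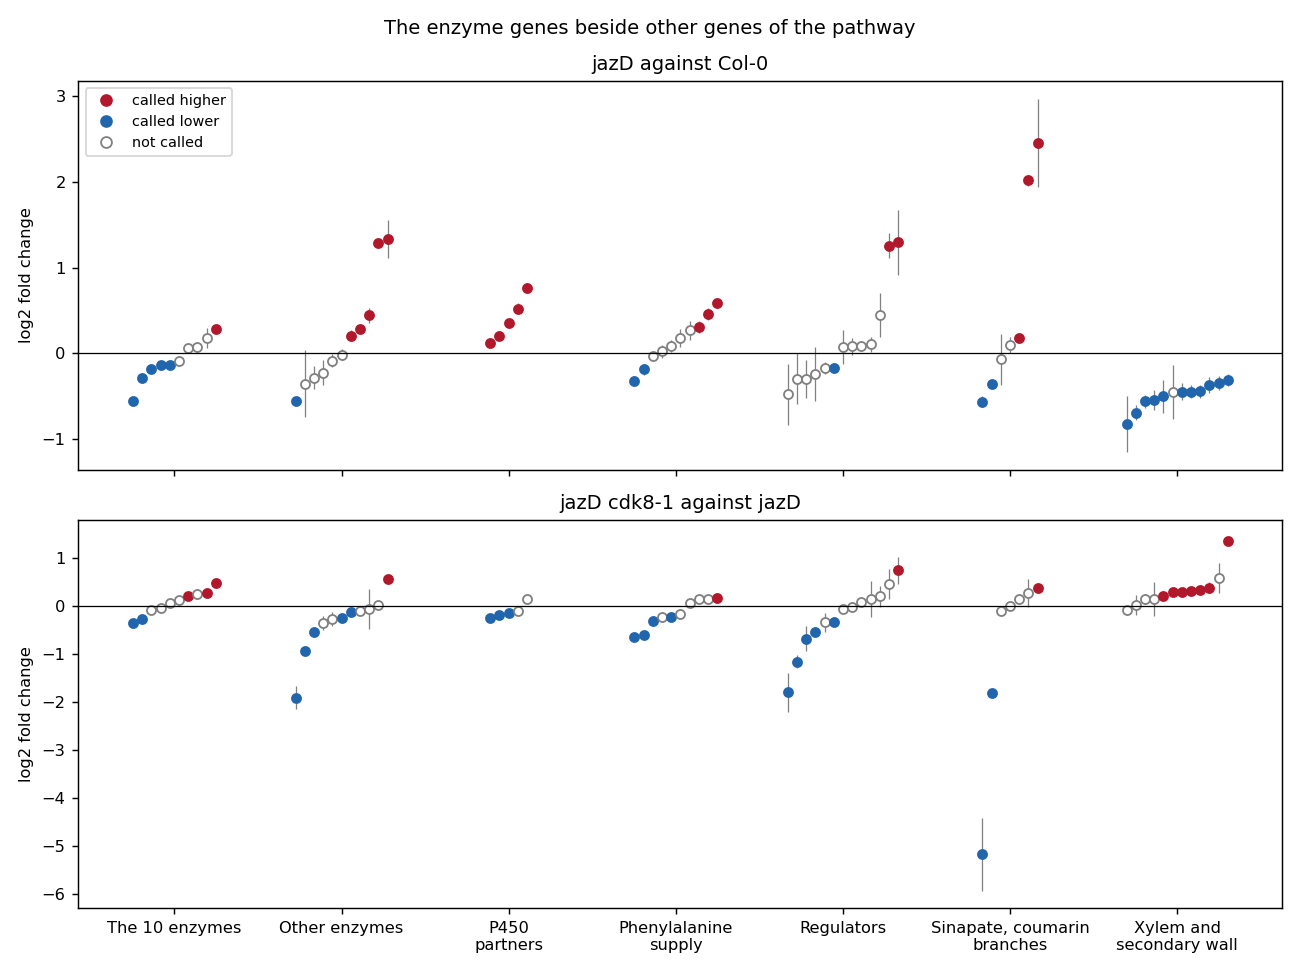
Log2 fold change with its approximate standard error for the 10 enzyme genes and for the tested genes of 6 other lists, jazD against Col-0 above and jazD cdk8-1 against jazD below. Each point is a gene, ordered by value within its list, red where called higher, blue where called lower and open where not called. The 10 enzymes stay within −0.57 and 0.47, the P450 partners lie above 0 in jazD, and the xylem markers lie below 0 in jazD, where 11 of 12 were called lower on scaled counts and on log2(TPM + 1). The lowest point of the lower panel is *F6′H1*, a coumarin gene with at most 50 counts in any library.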

How the data were processed

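The deposited expected counts come from RSEM 1.2.25 with TAIR10 as the genome, per the submitters' processing notes, and the deposited TPM values from the same tool. Aligner, strand protocol and hour of harvest: not given in the sources used here. RNA integrity was at least 6.5, the libraries came from a BGI transcriptome kit and the platform was DNBseq, per the labels' protocols. Of the expected counts 96.58% were whole, and all were rounded.

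The main test, on 12 libraries, was that of edgeR 4.0.16 (R 4.3.3; filterByExpr, which left 19059 genes; TMM; glmQLFit with 1 mean per genotype and 8 residual degrees of freedom; glmQLFTest, 2-sided; Benjamini-Hochberg over all genes, called at 0.05 with no fold threshold). Standard errors are the log2 fold change divided by the square root of its F statistic. The 95% intervals use them with the 8 residual degrees of freedom, fewer than the test uses, and so are wider than the test implies. Alternatives were DESeq2 1.42.0, its size factors in edgeR, no filter, only the groups compared, each library left out, a replicate block, limma 3.58.1 on log2(TPM + 1) and log2(TPM + 0.1), and summed counts of near copies. The test of jazD against Col-0 was tested on simulated data over 19059 genes, where it recovered 16 of 50 genes changed 1.2-fold, 35 of 50 changed 1.5-fold, 50 of 50 changed 2-fold and 48 of 50 changed 3-fold, with 13 false calls, 8.02% of all calls. No other simulated gene was changed, whereas 42.8% of tested genes were called in the data, so these rates do not carry over to the data.

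The members and lists were chosen with earlier results of these data known. Named are all 10 members and, from each other list, up to 3 called genes per direction with the smallest adjusted p in jazD against Col-0 and in jazD cdk8-1 against jazD; the *JAZ* genes and *CDK8* were the label check. Coordinates and sequences are from RefSeq TAIR10.1, joined by locus identifier. No 2 libraries of a genotype agreed within sampling noise.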

Additional observations from a re-analysis of the deposited data

Results flagged for a closer look

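*PAL1* was flagged because its response to the *cdk8-1* mutation differed between the *JAZ* backgrounds by a test of the difference itself. The change made by *cdk8-1* in jazD less the change it made with intact *JAZ* genes was −0.3706 on the log2 scale, made up of a rise of 0.58 in cdk8-1 against Col-0 and of 0.20 in jazD cdk8-1 against jazD. Genotypes with 3 libraries were not examined for libraries far from the others.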

How the results depend on the processing

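Against edgeR on TMM-scaled counts, TPM gave more members called in jazD cdk8-1 against jazD, 9 in place of 5, under log2(TPM + 1), log2(TPM + 0.1) and log2(TPM + 1) without a filter, and 2 in place of 1 for the interaction under the 2 filtered fits. Its scale moved the median of all genes by 0.13 and 0.15 in jazD cdk8-1 against jazD, and by 0.05 and 0.06 for the interaction, under the 2 filtered fits. The cause was not tested for single genes. Signs turned on log2(TPM + 1), with and without the filter, and on log2(TPM + 0.1) for *PAL1* (−0.0093 and −0.0095) and *C4H* (−0.017 and −0.0172) in jazD against Col-0, for *HCT* (0.0554 and 0.0558) and *COMT1* (0.1125 and 0.113) in jazD cdk8-1 against jazD, for *PAL2* (0.0415 and 0.0422), *CYP98A3* (0.0507 and 0.0521) and *CCR1* (0.0344 and 0.0347) in jazD cdk8-1 against Col-0, and for the interaction of *CYP98A3* (0.0249 and 0.0265).

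With near copies summed, the value of the pair took the sign of the more highly counted or more strongly changed gene by construction: *PAL1* −0.1035 in jazD against Col-0, *PAL2* 0.13 in jazD cdk8-1 against Col-0 and −0.1319 for the interaction, and *4CL2* −0.1645 in jazD, −0.2803 in cdk8-1 and −0.3838 in jazD cdk8-1, each against Col-0, −0.2193 in jazD cdk8-1 against jazD, −0.1034 against cdk8-1 and 0.0611 for the interaction.

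Leaving out each library in turn gave 4 to 7 members called in jazD against Col-0, 6 to 10 in cdk8-1 against Col-0, 5 to 7 in jazD cdk8-1 against jazD, 7 in every fit of jazD cdk8-1 against Col-0, 4 to 7 in jazD cdk8-1 against cdk8-1 and 1 to 2 for the interaction. Signs turned for uncalled members near 0: *CYP98A3* (−0.0358 to 0.0072) and *CCR1* (−0.0856 to 0.0086) in jazD cdk8-1 against Col-0, and *4CL2* (−0.0379 to 0.1152) in jazD cdk8-1 against cdk8-1.

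Equal replicate numbers did not pair the samples: the correlation of their deviations from the genotype means lay between −0.06 and 0.05 over 19059 genes. A replicate block ended the calls of *COMT1* in cdk8-1 against Col-0 (0.11, adjusted p = 0.0511) and of *4CL1* in jazD cdk8-1 against cdk8-1 (−0.12, adjusted p = 0.0550), and of no other member. Fitting only the groups compared ended both too (adjusted p = 0.0779 and 0.0660) and that of *PAL2* in cdk8-1 (adjusted p = 0.05845). It called *CYP98A3* in jazD cdk8-1 against jazD (adjusted p = 0.0487). Without a filter both were lost, with *COMT1* in jazD cdk8-1 against cdk8-1 and *CYP98A3* in jazD (adjusted p = 0.0538 to 0.0673). *CCR1* in cdk8-1 was then called (adjusted p = 0.0379). DESeq2 ended the *4CL1* call (adjusted p = 0.0575) and that of *CYP98A3* in jazD. In the self-test of jazD against Col-0, 16 of 50 genes changed 1.2-fold were recovered, so that changes of this size can be missed with 3 libraries per genotype.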
